A study of Mus musculus with 4 samples.

Results

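The pancreas, liver and bile duct arise as buds from the gut tube beside the future duodenum, and 9 genes that act in these buds were followed here across 4 organ primordia of the mouse. The genes are Pdx1, Ptf1a, Mnx1, Neurog3, Cpa1, Onecut1, Onecut2, Prox1 and Hhex. They were chosen by name, and every non-control probe whose RefSeq accession belongs to them was taken. That gave 13 of the 41174 probes on the array, and 9 of the 16995 genes that could be named. The intestine, stomach, esophagus and lung were dissected from embryos of ICR mice, an outbred laboratory strain, at embryonic day E11.5, with the day of the vaginal plug counted as E0.5. The stomach sample is the one titled "gustric". The labels state no treatment and no allele, and whether tissue of several embryos was pooled is not stated there. Each organ was read on 1 array, so no test between organs was possible, and every fold below describes 1 sample of each organ.

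In the embryo, Pdx1, Ptf1a and Mnx1 encode transcription factors that set aside and expand the pancreatic epithelium. Neurog3 then starts the endocrine lineage, and the digestive enzyme Cpa1 marks the progenitors at the tips of the growing branches. Onecut1, Onecut2, Prox1 and Hhex encode transcription factors shared by the liver, bile duct and pancreas, and several of them are also used elsewhere, Prox1 in lymphatic vessels and heart muscle and Hhex in the thyroid and in blood vessels. Pdx1 is also a known marker of the duodenum and the distal stomach, outside the pancreas.

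The 250 bases before and 50 bases after the annotated start of Pdx1, Ptf1a and Cpa1 are shown first, because Ptf1a and Cpa1 were both higher in intestine than in stomach and esophagus and because the PTF1 complex, which contains the Ptf1a protein, is known to bind an E-box together with a TC-box. The sequences are those of RefSeq in build GRCm38.p6, at chr5:147269847-147270146 for Pdx1, chr2:19445413-19445712 for Ptf1a and chr6:30638968-30639267 for Cpa1, all on the plus strand. Capitals mark the E-box, CANNTG, and the TC-box, TTTCCC, on either strand.
Pdx1: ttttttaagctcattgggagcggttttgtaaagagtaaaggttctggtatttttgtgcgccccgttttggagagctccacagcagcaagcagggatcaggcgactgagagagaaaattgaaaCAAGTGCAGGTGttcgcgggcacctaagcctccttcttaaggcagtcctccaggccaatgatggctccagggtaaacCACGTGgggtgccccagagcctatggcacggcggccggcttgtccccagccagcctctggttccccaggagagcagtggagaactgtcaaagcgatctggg
Ptf1a: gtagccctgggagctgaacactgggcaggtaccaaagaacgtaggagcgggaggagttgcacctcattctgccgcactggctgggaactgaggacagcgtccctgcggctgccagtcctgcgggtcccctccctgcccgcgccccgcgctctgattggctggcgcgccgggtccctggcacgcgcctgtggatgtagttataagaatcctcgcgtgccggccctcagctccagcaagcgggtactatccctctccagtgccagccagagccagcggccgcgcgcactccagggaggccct
Cpa1: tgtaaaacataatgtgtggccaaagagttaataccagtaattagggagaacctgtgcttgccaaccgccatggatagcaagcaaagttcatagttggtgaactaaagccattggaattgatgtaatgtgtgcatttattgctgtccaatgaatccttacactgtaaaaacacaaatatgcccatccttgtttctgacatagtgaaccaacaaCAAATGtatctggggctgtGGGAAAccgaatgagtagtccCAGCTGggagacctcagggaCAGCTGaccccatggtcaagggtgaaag

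The Cpa1 window held both motifs: an E-box starts 38 bases before the annotated start, and a TC-box starts 19 bases after that E-box does. The TC-box lies on the minus strand, so the printed plus strand shows it as GGGAAA. Of 32851 RefSeq promoter windows of this length, 72.3% held an E-box, 25.2% a TC-box and 18% both. A share of 3.70% held both with their first bases at most 19 bases apart, a limit taken from the Cpa1 window itself. The Cpa1 window also held 2 further E-boxes, both CAGCTG, just past the start. The Pdx1 window held 3 E-boxes, the last of them CACGTG, and no TC-box, and the Ptf1a window held neither motif. GC content was 43.7% in the Cpa1 window, 55.3% in that of Pdx1 and 67.3% in that of Ptf1a, against a median of 52.7% over all windows. On either strand, the Cpa1 window held 1 match to the Onecut core ATCAAT, found in 7.54% of all windows. It also held 1 match to the homeodomain core TAATTA, found in 5.29%. The forkhead core TGTTTAC, found in 3.65%, was in none of the 3 windows. These matches describe letters only, and binding was not measured.

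Levels are log2 processed signal minus the array's own 75th percentile, so that 0 is the 75th percentile of the probes on that array. A probe counts as measured when the scanner software marked it well above background. The lowest level so marked was −6.92 in intestine, −5.78 in stomach, −5.75 in esophagus and −2.39 in lung, where the array was dim throughout: 39.0% of its 43379 spots were well above background, against 67.9% to 74.0% on the others. If only one array of a pair measured a gene, the other was given its lowest measured level, or the gene's own reading where that was larger, and the fold is written "at least". Where both were below background no fold is given. An "at least" fold holds for the signal as processed here and is not a guaranteed minimum. Some dim genes read above their array's lowest measured level, such as Pecam1 at −2.26 in lung. With normexp background correction Onecut2 in intestine over lung was 1.46-fold, in place of at least 4.27-fold. All members have 1 spot for each probe, and a ± below is the scanner software's error for that spot, which leaves out any difference between embryos, dissections or labellings. A second measure of error is the spread between probes of the same gene. The SD of the difference in log2 ratio between a gene's 2 brightest probes was 0.75 for intestine against stomach (4691 genes), 1.04 for intestine against esophagus (4694 genes) and 0.51 for stomach against esophagus (4615 genes). Against lung it was 0.91 for intestine, 1.105 for stomach and 1.203 for esophagus.

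The intestine, stomach and lung labels were set against marker genes, given as summed levels with the 75th percentile as 1. The marker lists were chosen with earlier results of these data known, so a match with a label is not an independent check of it. No list marked the esophagus, so that label was not looked at. Intestinal epithelium genes summed to 9.43 in intestine and at most 0.34 elsewhere, although Cdx1 was not well above background in intestine. Stomach mesenchyme genes summed to 25.5 in stomach and at most 3.02 elsewhere, and lung epithelium genes to 9.94 in lung and at most 0.76 elsewhere. The value of 0.76 is that of the esophagus array, on which both lung genes, Nkx2-1 and Sftpc, were measured.

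All 9 members were well above background in intestine, 8 in stomach, 6 in esophagus and 1, Hhex, in lung. Over all named genes the shares were 84.1% in intestine, 78.7% in stomach, 78.3% in esophagus and 56.2% in lung. Ptf1a was the member missing in stomach, and Pdx1, Ptf1a and Neurog3 those missing in esophagus. In lung, the level of Pdx1, Ptf1a, Mnx1, Neurog3 and Prox1 on the intestine array would itself have lain below the lowest measured level of −2.39, so that these 5 genes could not be compared between intestine and lung.

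**Figure D1:**
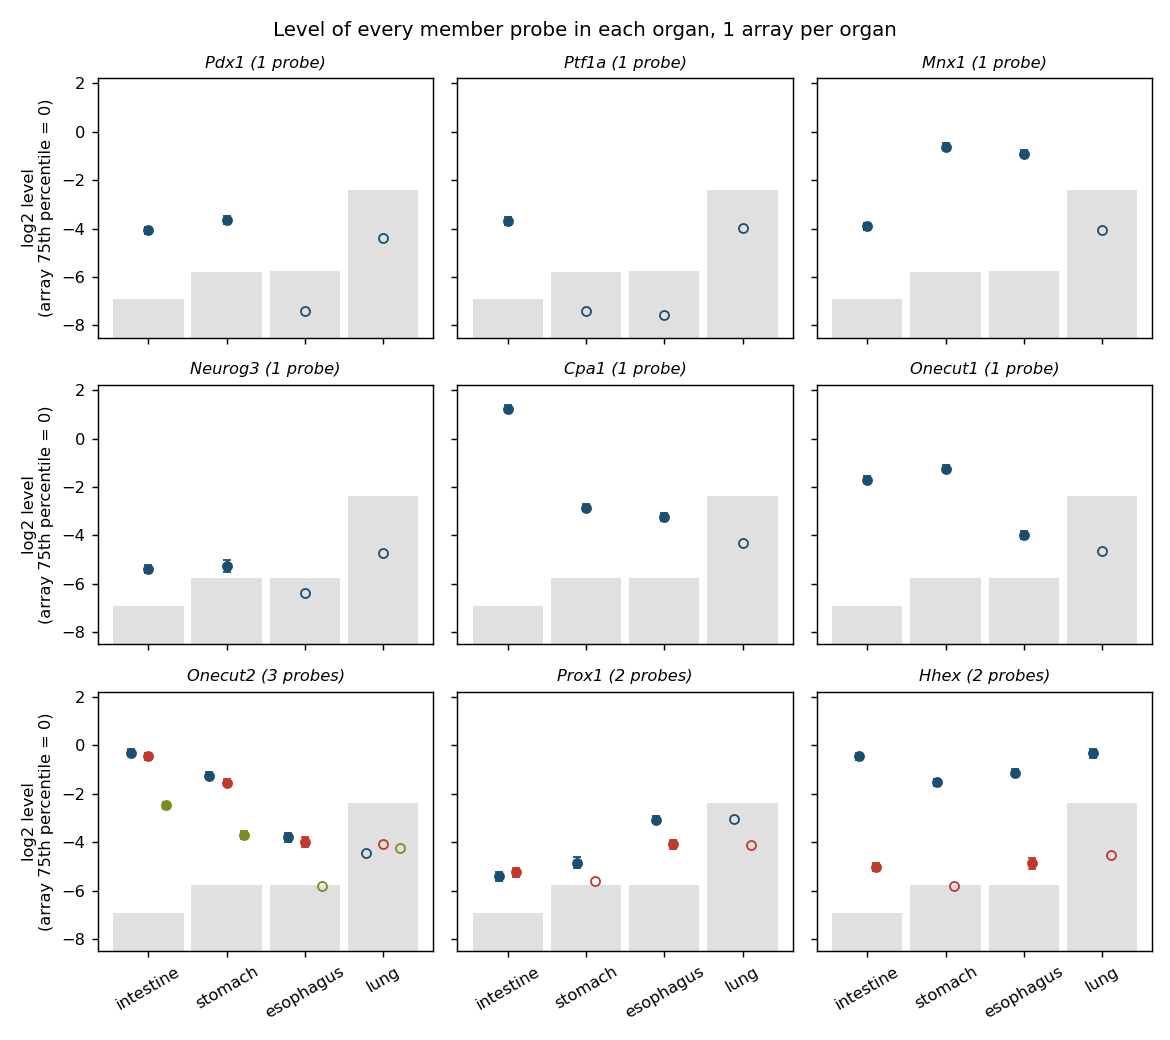
Level of each of the 13 probes (vertical axis, log2 with the array's 75th percentile at 0) in intestine, stomach, esophagus and lung. Filled points are well above background and carry the scanner's error, open points are not, colours separate probes of a gene, and grey bars reach up to the lowest measured level of each array. Cpa1 is above 0 in intestine and below −2 in the other organs, and Hhex is the only member measured in lung.

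Cpa1, which encodes the pancreatic protease carboxypeptidase A1, was far higher in intestine than in the other 3 organs. Its level was 1.24 ± 0.14 in intestine, −2.85 ± 0.15 in stomach and −3.23 ± 0.16 in esophagus, and it was not well above background in lung. In linear signal, which is not scaled between arrays, these were 2338, 44.4 and 40.4 units on the 3 arrays that measured it. The 75th percentile of those arrays was 991, 320 and 379 units, so part of that gap is the brightness of the intestine array. On the scaled levels intestine still stood far above the others, while stomach and esophagus lay close together. The fold was 17.0 for intestine over stomach (log2 4.09 ± 0.21), 22.2 over esophagus (4.47 ± 0.21) and at least 12.4 over lung. Of 13812 genes with a fold between intestine and stomach, 99.8% had a smaller difference than Cpa1. With normexp background correction the differences were 3.0 over stomach, 3.38 over esophagus and at least 1.82 over lung, and the order of the organs was the same. In bulk tissue such as this, more cells of a type and more RNA in each cell cannot be told apart.

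Ptf1a, which encodes the DNA-binding subunit of PTF1 and is needed for pancreatic identity, was measured in intestine only, at −3.69 ± 0.15 (77.0 units of signal). In the same units, not scaled between arrays, its signal was 1.90 in stomach, 2.02 in esophagus and 2.05 in lung, none of them well above background. Intestine was therefore at least 4.25-fold above stomach and at least 4.19-fold above esophagus, and no fold could be given against lung. With normexp correction no fold was obtained for Ptf1a in any pair of organs. The intestine level was 9.42-fold above the lowest measured level of this array. Ptf1a and Cpa1 were thus the 2 members for which intestine exceeded stomach by 4-fold or more, as it did for 1.39% of all genes. For Ptf1a the log2 bound over stomach was 1.92 under quantile normalization, short of 4-fold. Over esophagus it was 1.97 when the percentile was taken over probes measured on every array, also short of 4-fold.

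Pdx1, the homeobox factor of the early pancreas, duodenum and distal stomach, gave a different order. It stood at −4.08 ± 0.15 in intestine and −3.65 ± 0.16 in stomach, and was not well above background in esophagus or lung. The difference of −0.43 ± 0.22 between intestine and stomach was smaller than the spread between probes of a gene, 0.75, so the 2 organs were not ordered by it. Intestine was at least 3.19-fold and stomach at least 4.29-fold above esophagus. With normexp correction stomach over esophagus was 1.60-fold, no fold was obtained for intestine over esophagus, and intestine minus stomach was −0.97, past that spread.

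Mnx1, a homeobox factor of the dorsal pancreatic bud, the notochord and motor neurons, ran the other way from Cpa1. Its level was −3.91 ± 0.15 in intestine, −0.63 ± 0.14 in stomach and −0.90 ± 0.14 in esophagus, and not well above background in lung. It was 9.73-fold lower in intestine than in stomach (log2 −3.28 ± 0.21) and 8.05-fold lower than in esophagus (−3.01 ± 0.21). Of all genes, 0.348% had a lower intestine minus stomach difference. Stomach and esophagus differed by 0.27 ± 0.20, within the spread between probes, and were at least 3.40-fold and at least 2.81-fold above lung. The call for esophagus over lung ended under median centring, at 1.88-fold, and with normexp correction no fold was obtained for Mnx1 against lung. With normexp correction the intestine minus stomach difference was −2.42.

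Because Mnx1 also marks motor neurons, a list of spinal cord and motor neuron genes was read on the same arrays. Of its 8 genes on the array, 6 were well above background in intestine, 6 in stomach, 3 in esophagus and 0 in lung. The highest level was −4.45 in intestine, −4.40 in stomach and −4.51 in esophagus, so that the list was dim but measured in the gut organs. Lhx4, Lhx1 and Pax2 were measured in all 3 gut organs and Chat in intestine and stomach. Lhx3 and Slc18a3 were measured in intestine only, and Olig2 and Lhx5 in stomach only. The part of motor neurons in the Mnx1 signal was not tested.

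Neurog3, the trigger of endocrine differentiation, was barely measurable. It stood at −5.39 ± 0.17 in intestine and −5.26 ± 0.25 in stomach, which is 2.88-fold and 1.43-fold above the lowest measured level of those arrays, and it was not well above background in esophagus or lung. The 2 measured organs differed by −0.14 ± 0.30, less than the scanner's own error, and the sign turned under median centring (0.16) and quantile normalization (0.14). With normexp correction it was −1.21. Stomach was at least 1.41-fold above esophagus, or 2.15-fold when the dim value was used as read. No order of the organs can be read for this gene.

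Onecut1 and Onecut2, cut-homeodomain factors that act upstream of endocrine and biliary differentiation, were measured in the 3 gut organs and dim in lung. Onecut1 stood at −1.69 ± 0.14 in intestine, −1.25 ± 0.14 in stomach and −3.97 ± 0.17 in esophagus. Intestine and stomach differed by −0.44 ± 0.20, within the spread between probes. Both lay above esophagus, by 4.86-fold for intestine (log2 2.28 ± 0.22) and 6.61-fold for stomach (2.72 ± 0.22). With normexp correction these log2 differences were 1.04 and 1.5. Against lung, intestine was at least 1.62-fold and stomach at least 2.21-fold higher, the last of which was 1.69-fold under median centring and 1.80-fold under quantile normalization. With the dim lung value used as read, intestine over lung was 7.74-fold, and with normexp correction no fold against lung was obtained.

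Onecut2 has 3 probes, which allowed each ratio to be read 3 times within an array. On the brightest probe it stood at −0.30 ± 0.14 in intestine, −1.26 ± 0.15 in stomach and −3.81 ± 0.17 in esophagus. The second probe gave −0.46, −1.54 and −3.99 in the same organs, and the third gave −2.47 and −3.69 in intestine and stomach and was not well above background in esophagus. All 3 probes thus placed intestine first, stomach next and esophagus last. Intestine over stomach was 1.95-fold on the brightest probe and 2.11-fold and 2.33-fold on the others, so the brightest probe fell just short of 2-fold and the others just past it. It passed 2-fold under median centring (2.40), quantile normalization (2.05) and the mean of all probes (2.12). Intestine over esophagus was 11.4-fold and 11.6-fold on the first 2 probes and at least 9.71-fold on the third. Stomach over esophagus was 5.85-fold, 5.48-fold and at least 4.17-fold. With normexp correction these 2 differences were 2.14 and 1.35 on the log2 scale. Against lung, intestine was at least 4.27-fold higher on the brightest probe (1.46-fold with normexp correction) and at least 3.83-fold on the second. With the mean of all probes the log2 difference was 1.32. Stomach was at least 2.2-fold above lung on the brightest probe and at least 1.81-fold on the second. That step was 1.17-fold with the mean of all probes, 1.68-fold under median centring and 1.79-fold under quantile normalization, with no fold with normexp correction. The third probe gave no fold against lung.

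Prox1, a homeobox factor of liver and pancreas progenitors, lymphatic endothelium and heart muscle, was low in intestine and stomach, and both of its probes were highest in esophagus among the gut organs. The brighter probe stood at −5.42 ± 0.19 in intestine, −4.85 ± 0.23 in stomach and −3.06 ± 0.15 in esophagus. The dimmer probe stood at −5.24 ± 0.19 in intestine and −4.09 ± 0.19 in esophagus and was not well above background in stomach. Both probes placed intestine below esophagus, by 5.10-fold on the brighter and 2.22-fold on the dimmer. They part on intestine against stomach, with 1.48-fold lower on the brighter and at least 1.29-fold higher on the dimmer. With normexp correction the brighter probe gave 2.30-fold lower. Stomach was 3.45-fold below esophagus on the brighter probe and at least 2.87-fold on the dimmer, but 1.22-fold with normexp correction.

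Heart muscle genes were also highest in esophagus. All 5 genes of the list (Myh6, Myl7, Tnnt2, Nppa and Mybpc3) were well above background in the 3 gut organs, and their summed level, with the 75th percentile as 1, was 0.70 in intestine, 1.54 in stomach, 94.1 in esophagus and 7.70 in lung. The lymphatic endothelium list (Lyve1, Flt4 and Pdpn) summed to 0.46 in intestine, 0.20 in stomach, 0.51 in esophagus and 1.02 in lung, all 3 genes being measured in the gut organs and Lyve1 alone in lung. The part of either cell type in the Prox1 signal was not tested.

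Hhex, a homeobox factor that the ventral pancreas and the liver bud need, was the only member measured on all 4 arrays. Its brighter probe stood at −0.45 ± 0.14 in intestine, −1.52 ± 0.15 in stomach, −1.14 ± 0.15 in esophagus and −0.32 ± 0.18 in lung. Intestine was 2.10-fold above stomach (log2 1.07 ± 0.21), a difference that fell under 2-fold with normexp correction (1.54) and with the mean of all probes (1.88). Intestine and esophagus differed by 0.69 ± 0.20 on this probe, but by −0.18 on the dimmer one, which stood at −5.04 in intestine and −4.86 in esophagus. Under median centring the brighter probe gave 2.28-fold. Intestine and lung differed by −0.13 ± 0.23, within the scanner's error, and the sign turned (0.08) when the percentile was taken over probes measured on every array. Stomach was 2.29-fold below lung, and 1.99-fold under that same scaling. Esophagus was 1.76-fold below lung, and 2.64-fold under median centring and 2.02-fold under quantile normalization. Of these steps, intestine over stomach (1.07 against 0.75) and stomach under lung (−1.20 against 1.105) passed the spread between probes, and those of intestine and lung against esophagus did not.

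The brighter Hhex probe was lowest in stomach, and so were the summed levels of liver genes and of endothelial genes. Within the liver list Apoa1 went the other way, at −3.28 in stomach and −3.93 in esophagus. The 6 liver genes on the array summed to 62.5 in intestine, 3.36 in stomach, 10.04 in esophagus and 27.1 in lung, with all 6 measured in intestine, 5 in stomach and esophagus (Ttr was dim) and 4 in lung (Ttr and Apoa1 were dim). Endothelial genes, 5 in all, summed to 11.7 in intestine, 8.05 in stomach, 10.05 in esophagus and 10.3 in lung, and Pecam1 in lung was the one value not well above background. Of 5 thyroid genes, 2 were measured in intestine, 1 in stomach, 3 in esophagus and 0 in lung. Foxe1 and Tshr were measured in esophagus only, Foxe1 at least 11.2-fold and Tshr at least 6.77-fold lower in intestine. Tg was measured in the 3 gut organs and Pax8 on no array. The part of these cells in the Hhex signal was not tested.

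**Figure D2:**
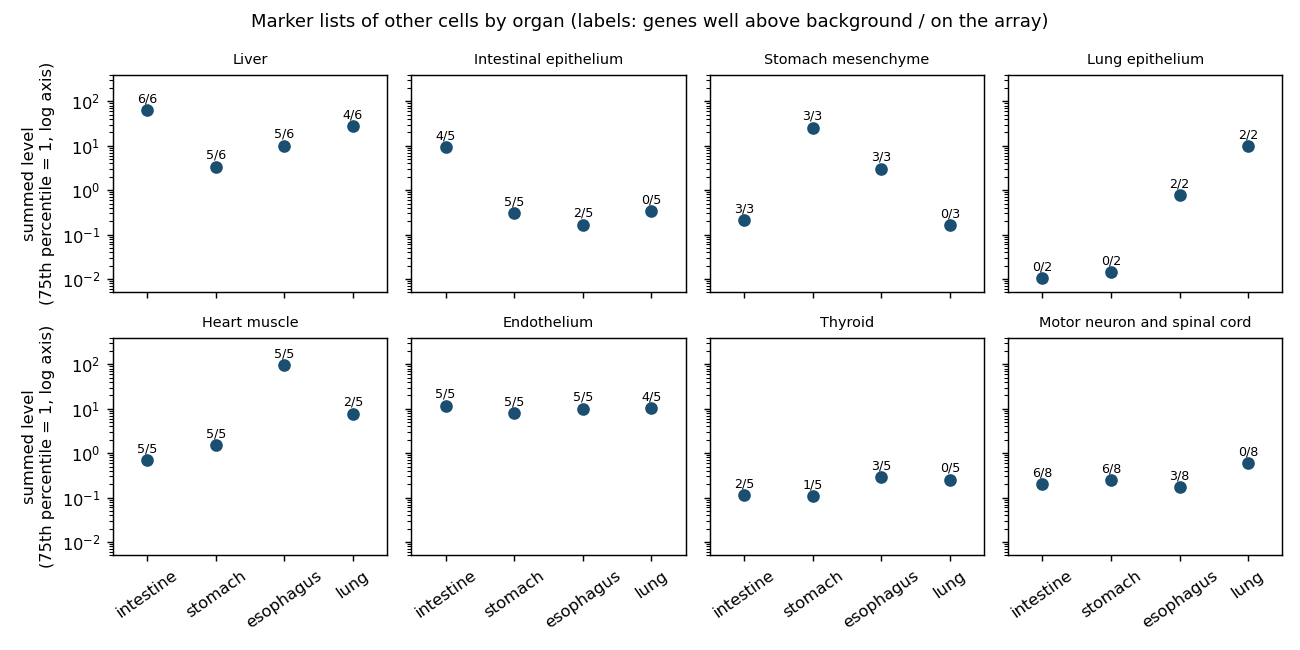
Summed level of each marker list (vertical axis, log scale, with the array's 75th percentile as 1) in intestine, stomach, esophagus and lung; the sum includes dim genes at their own value, and the labels give how many genes of the list were well above background out of those on the array. Liver genes are highest in intestine, heart muscle genes in esophagus, and the epithelial or mesenchymal markers of intestine, stomach and lung on the array labelled with that organ.

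Counted together, intestine exceeded stomach by 2-fold or more for 3 of the 9 members (Ptf1a, Cpa1 and Hhex; 4.88% of all genes), and was below it by as much for 1 (Mnx1; 7.52%). Against esophagus, 5 of 9 were higher in intestine (Pdx1, Ptf1a, Cpa1, Onecut1 and Onecut2; 8.71% of all genes) and 2 lower (Mnx1 and Prox1; 11.9%). Against lung a fold existed for 4 members, of which Cpa1 and Onecut2 were at least 2-fold higher in intestine (8.41% of all genes) and 0 lower (12.2%). Between stomach and esophagus, 3 of 8 members with a fold were higher in stomach (Pdx1, Onecut1 and Onecut2; 4.28%) and 1 lower (Prox1; 5.63%). Between stomach and lung, 3 of 4 were higher in stomach (Mnx1, Onecut1 and Onecut2; 9.9%) and 1 lower (Hhex; 14%). Between esophagus and lung, Mnx1 of 2 members was higher in esophagus (9.44%) and 0 were lower (16.2%).

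At 4-fold, 2 members were higher in intestine against stomach (Ptf1a and Cpa1) and 1 lower (Mnx1; 1.31% of all genes). Against esophagus 4 were higher in intestine (Ptf1a, Cpa1, Onecut1 and Onecut2; 1.79%) and 2 lower (Mnx1 and Prox1; 3.88%). Prox1 passed 4-fold on its brighter probe only, being 2.22-fold lower in intestine than in esophagus on the dimmer. Its log2 difference was short of 4-fold with normexp correction (−1.49) and under median centring (−1.85). The same held under quantile normalization (−1.48) and with the mean of all probes (−1.75). Against lung Cpa1 and Onecut2 were higher in intestine (1.68%) and 0 lower (2.39%), Onecut2 on its brightest probe only. The 3 members higher in stomach than in esophagus all passed 4-fold (0.692%), and 0 were lower (1.57%). No member passed 4-fold between stomach and lung (1.96% of all genes higher, 2.45% lower) or between esophagus and lung (2.35% higher, 1.65% lower).

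**Figure D3:**
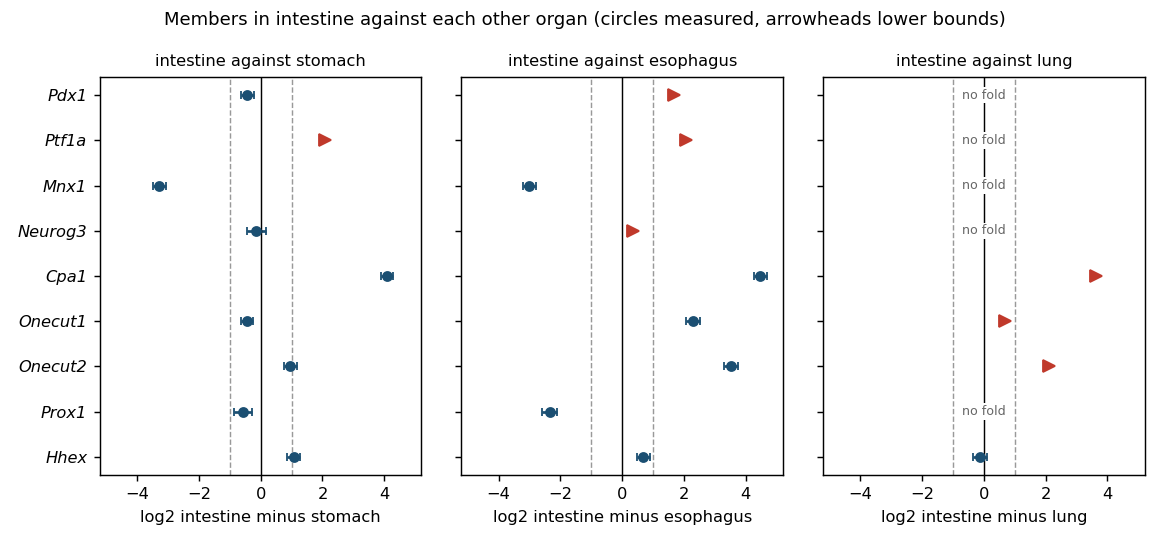
Log2 difference of each member (rows) for intestine minus stomach, minus esophagus and minus lung (horizontal axes). Circles are measured on both arrays, with the scanner's error, arrowheads are lower bounds, and dashed lines mark 2-fold; Cpa1 is to the right in all 3 comparisons and Mnx1 to the left in both it was measured in.

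The median difference over members was −0.14 for intestine minus stomach, against −0.04 over all genes, and 1.68 for intestine minus esophagus (bounds included), against 0.13 over all genes. For stomach minus esophagus it was 0.44 over 8 members, against 0.16. In intestine 1 member, Cpa1, was at least 2-fold above every other organ, as were 1.11% of the 14518 genes measured on at least 1 array. Because a gene must also exceed lung's lowest measured level to pass, Ptf1a could not. Without the lung array Ptf1a joined Cpa1, and without the stomach array Onecut2 did. No member was at least 2-fold above every other organ in stomach (0.372% of all genes), esophagus (1.12%) or lung (4.45%). At 4-fold Cpa1 again was the member in intestine (0.262%), and there was none in stomach (0.062%), esophagus (0.31%) or lung (0.475%).

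**Figure D4:**
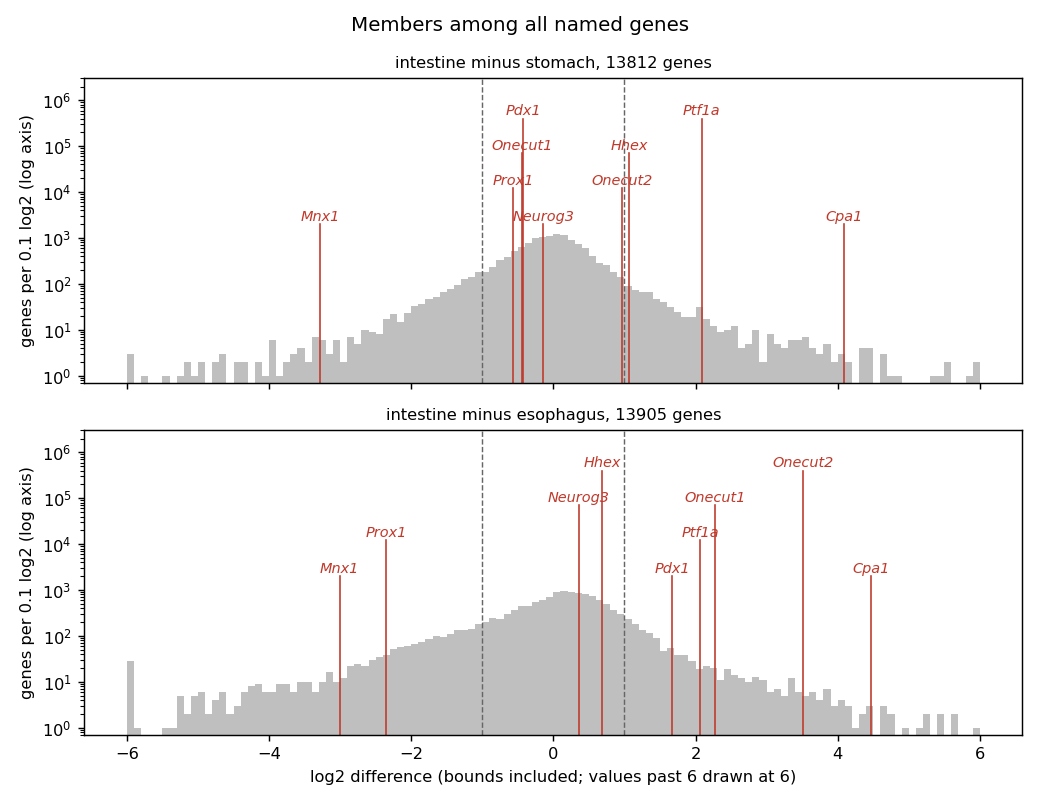
Distribution over all named genes (grey, log count axis) of log2 intestine minus stomach (13812 genes, top) and intestine minus esophagus (13905 genes, bottom), with the 9 members in red. Cpa1 lies in the far right tail of both and Mnx1 in the left tail, while Pdx1, Onecut1, Prox1 and Neurog3 lie near the middle for intestine minus stomach.

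The scaling sets how many genes of all lie on either side. Between intestine and stomach, 674 genes were higher and 1038 lower in intestine, while median centring gave 1263 and 586, and quantile normalization 804 and 642. Between intestine and esophagus they were 1211 and 1661, while those settings gave 3763 and 956, and 1726 and 1261. Between intestine and lung they were 877 and 1272, while a percentile over probes measured on every array gave 1244 and 847. The directions of Cpa1, Ptf1a and Mnx1 were the same under each of these scalings.

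Other genes of the pancreas were read from lists. Of 20 endocrine pancreas genes, all on the array, 15 had a fold between intestine and stomach. Of these, 1 was past 2-fold upward in intestine (4.88% of all genes) and 4 downward (7.52%). Against esophagus 6 of 15 were higher (8.71%) and 4 lower (11.9%), and against lung 2 of 9 were higher (8.41%) and 3 lower (12.2%). The peptide hormone gene Pyy was highest in intestine, at 0.76, against −1.78 in stomach, −1.57 in esophagus and −1.77 in lung, or 5.82-fold over stomach. The homeobox gene Nkx6-1, which beta cells and some neurons use, stood at −1.77 in intestine, 1.13 in stomach, 2.58 in esophagus and 0.33 in lung, and was 20.4-fold lower in intestine than in esophagus. Isl1, used by islet cells and neurons, stood at −0.65 in intestine, 2.13 in stomach, 0.35 in esophagus and 0.48 in lung, 6.89-fold lower in intestine than in stomach. Intestine was thus the lowest organ for Nkx6-1 and Isl1 and the highest for Pyy. The endocrine factors Neurod1 and Pax4 were not well above background on any array.

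Of 20 genes of pancreatic progenitors and exocrine cells, 17 were on the array and all 17 had a fold between intestine and stomach. Of these, 2 were at least 2-fold higher in intestine (Nr5a2 and Dlk1; 4.88% of all genes) and 4 lower (Gata4, Foxa2, Cpb1 and Nkx6-2; 7.52%). Against esophagus 3 of 17 were higher (8.71%) and 3 lower (11.9%), and against lung 2 of 11 were higher (8.41%) and 4 lower (12.2%). Cpb1, which encodes another pancreatic carboxypeptidase, stood at −4.82 in intestine, −2.57 in stomach and −2.65 in esophagus, lowest of the gut organs in intestine, where Cpa1 was highest. Nkx6-2, a homeobox factor related to Nkx6-1, stood at −2.12 in intestine and 2.30 in stomach, 21.4-fold lower in intestine, and was not well above background in esophagus or lung. Foxa2, an endodermal forkhead factor, was 8.30-fold lower in intestine than in lung and Sox9, a progenitor factor that cartilage and lung tips also use, 5.05-fold lower. The list's median difference was −0.27 against −0.04 over all genes, and Cpa1 and Ptf1a are not on the list.

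Of 20 hepatoblast and biliary genes, 18 were on the array, and intestine was past 2-fold above stomach for 8 (4.88% of all genes) and below it for 0 (7.52%). Of the 8, 6 are the liver genes given above, and the others are Hnf4a and Jag1. Against lung 6 of 15 were higher in intestine (8.41%) and 2 lower (Tbx3 and Cebpa; 12.2%). Against esophagus 11 of 18 were higher (8.71%) and 0 lower (11.9%), with a median of 2.06 against 0.13 over all genes. The 4 genes furthest apart encode secreted liver proteins. Alb was 41.2-fold higher in intestine than in stomach, Fgb 21.5-fold, Apoa2 20.6-fold and Afp 17.3-fold. Onecut3, the remaining gene of the Onecut family, stood at −3.56 in intestine and −3.41 in stomach and was not well above background in esophagus or lung, and was named after its values were seen.

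The genes whose profile over the 4 arrays was nearest to each member, by root-mean-square difference of centred log2 values among 14308 genes, were listed as a description. Nearest to Cpa1 were Hpgd (0.38) and Rbp4 (0.46), and to Mnx1 Bche (0.27) and Plk5 (0.35). Nearest to Hhex were Col4a1 (0.03) and Pid1 (0.05), to Onecut1 C1ql1 (0.27) and Akr1c19 (0.34), and to Onecut2 Afm (0.10) and St8sia3 (0.23). Nearest to Prox1 were Col9a3 (0.09) and Nexmif (0.11), and to Pdx1 Angptl8 (0.10) and Chrnb4 (0.12). For Ptf1a (Slc4a10 and Rhbg) and Neurog3 (Olfr341 and Mal) the likeness rests on arrays where both genes were dim and stand at the same lowest level. Pdx1 and its neighbour Chrnb4 were likewise both dim in esophagus and lung. Each likeness rests on 4 arrays. Every member but Hhex was itself dim in lung and entered there at the lowest measured level, so in lung its match is to a bound. Among the neighbours, all but Rbp4, Akr1c19, Col9a3, Nexmif and Col4a1 were dim in lung. The dim neighbours entered at the lowest measured level, except Hpgd, which entered at its own higher reading of −1.77.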

How the data were processed

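RNA of 4 organ primordia was labelled with Cy3 using a low-input amplification kit and hybridised in 1 colour, per the labels' protocols. The extraction protocol of every sample names the stomach; the organ was taken from the titles. Per the file headers, the deposited spot intensity values come from Agilent Feature Extraction 10.5.1.1 (protocol GE1_105_Dec08, design 014868, build mm8), are background-subtracted within the array and are not scaled between arrays; all 4 arrays share 1 slide. The deposited series table holds log2 values that match log2 processed signal minus the 75th percentile (r of 0.99996 to 0.99998), which gives their scale, centring and direction, although single probes differ by up to 5.45 in intestine, 5.30 in stomach, 2.42 in esophagus and 2.54 in lung. Its column medians are −3.46 in intestine, −3.16 in stomach, −2.96 in esophagus and −3.55 in lung. No spot was saturated.

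Outlier-flagged spots were dropped, which removed 69 probes, copies of a probe averaged, and the 75th percentile over 41105 probes subtracted. Accessions of 24338 probes matched 1 symbol in the RefSeq gene table of GRCm38.p6. A gene was read from its brightest probe by mean level. Thresholds of 2-fold and 4-fold are sizes, not tests. Promoter windows were matched by symbol for 8 of the 9 members; Onecut2 is not shown.

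The members and lists were chosen with earlier results of these data known. Named from each list are up to 4 genes at least 4-fold apart between intestine and another organ, largest first, and the 2 nearest profiles for each member. Other list genes in the text were named after their values were seen. Some list genes that meet this rule, and 1 marker list, are not reported here. Alternatives were normexp correction with offset 50 (on median signals, since the files hold no mean signal), median centring, the percentile over probes measured on every array, quantile normalization, the deposited table, the mean of all probes, another detection flag, no bounds for dim probes, and leaving out an array. Calculations used Python 3.11.15, numpy 2.4.6, pandas 2.3.3, R 4.3.3 and limma 3.58.1, and were tested on simulated data.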

Additional observations from a re-analysis of the deposited data

How the results depend on the processing

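Over the members, 279 differences under 8 alternatives were set against the main 36: 243 moved by less than the SD between probes of a gene, 36 by more, and 0 called differences changed sign. The deposited table changed no call, and normexp correction gave 27 values of 36, with no fold for Ptf1a in any pair, for Pdx1 and Neurog3 between intestine and esophagus, for Mnx1 and Onecut1 against lung, or for Onecut2 between stomach and lung. With normexp correction, whose offset of 50 is larger than the 32.0 units at lung's 75th percentile, the members at least 2-fold higher in intestine numbered 1 against stomach, 3 against esophagus and 1 against lung, in place of 3, 5 and 2. The members at least 2-fold above every other organ in intestine, 1 in the main setting, numbered 2 under median centring, quantile normalization and the mean of all probes, and 2 with the stomach or the lung array left out. The cause was not tested. No paired analysis was possible because each organ has 1 array. Depth limits lung: 8 of 9 members were not well above background there, and their absence from lung is not shown.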
